A study of Mus musculus with 8 samples.

Results

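The comparison described here set WT-USP21 against ED-USP21 within 3 cell lines, numbered 2, 3 and 4, and took the 6 libraries of these lines out of the 8 in the series. The lines are mouse pancreatic ductal adenocarcinoma cells of the iKPC model, a mouse tumour model in which an oncogene is switched on in the pancreas. All 6 libraries carry a tetO oncogene allele, ROSA_rtTA and p48-Cre. The tetO and rtTA alleles make the transgene depend on doxycycline, and p48-Cre acts in pancreatic progenitors and the acinar lineage. Line 2 is labelled with the mixed background FVB/C57Bl6, and lines 3 and 4 with C57BL/6. Each line was sequenced once with overexpressed WT-USP21 and once with overexpressed ED-USP21, which gave 3 libraries for each construct. The labels do not spell out ED. For an enzyme such as this one it is commonly used for an enzyme-dead form. The labels give neither the doxycycline state nor the clonal origin of the lines. All 8 libraries of the series carry WT-USP21 or ED-USP21, so none gives a level without a construct. A rise with WT-USP21 therefore cannot be told apart from a fall with ED-USP21. The 2 libraries of line 1 (FVB/C57Bl6) stayed out of the fit.

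The 3 lines were chosen by measured values of these data, since the construct effect in line 1 differs from theirs and fewer genes pass the test when line 1 is included. The calls below therefore describe these 6 libraries and are not independent evidence for the direction of any gene. No single gene was selected on its values, and every gene with enough reads was tested.

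USP21 is a deubiquitinase, an enzyme that takes ubiquitin off other proteins and can thereby spare them from breakdown by the proteasome. An enzyme-dead deubiquitinase can still bind its partners but does not cut ubiquitin. Pancreatic ductal adenocarcinoma cells keep varying amounts of duct and gut epithelial character, such as keratins, mucins, tight junctions and gut transcription factors, beside mesenchymal character such as fibronectin and N-cadherin. Targets of beta-catenin, the transcriptional arm of the Wnt pathway, are dealt with here in 1 sentence. Of 16 tested members of a Wnt/beta-catenin target list, 10 were called higher and 0 lower with WT-USP21. The text below concerns the other genes.

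Each library held between 72828184 and 98073396 reads counted on genes. Levels are given in CPM, the counts scaled to the size of the library, which are not divided by transcript length, so they compare libraries for 1 gene and not genes with each other. Values for a construct are listed in the order of lines 2, 3 and 4. Usp21 itself (ENSMUSG00000053483) stood at 953, 546 and 949 CPM with WT-USP21 and at 3157, 1668 and 2742 CPM with ED-USP21. Every ED-USP21 library lay above every WT-USP21 library, and the ratio of ED-USP21 to WT-USP21 within a line was 3.31, 3.06 and 2.89 in the same order. The log2 difference of WT-USP21 minus ED-USP21 averaged -1.62 ± 0.0989 (SD, n = 3 lines). The exact 2-sided permutation test gave p = 0.1, the smallest value 3 against 3 libraries allow, and the exact sign-flip test over the 3 lines gave 0.25, again the smallest possible. Reads of the introduced and the resident gene are not separated in the counts. The comparison thus covers the form of USP21 and its amount together, and these cannot be told apart.

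The libraries were checked against markers of the labelled cell type and of other cells. Duct and PDAC markers were abundant in both groups, with a summed level of 10753 to 12591 CPM with WT-USP21 and 10564 to 14156 CPM with ED-USP21. Of the 14 genes of that list 3 had a mean under 1 CPM, Epcam (0.173), Cldn4 (0.045) and Onecut1 (0.033). Acinar markers summed to between 7.69 and 12.4 CPM and islet markers to between 2.85 and 4.05 CPM over the 6 libraries, with 8 of 16 and 8 of 14 genes at 0 reads in all 6. Lines 2 and 4 lay close to each other: among 12270 genes with a mean of at least 1 CPM, only 94 differed at least 2-fold between their WT-USP21 libraries and 87 between their ED-USP21 libraries. Line 3 differed from each of them at 242 to 361 genes within a construct. The libraries of lines 2 and 4 differed by more than counting noise and were counted as separate libraries, as they are labelled. How far lines 2 and 4 are independent of each other was not tested.

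edgeR's quasi-likelihood test with the line as a block was run on 16326 genes, with Benjamini-Hochberg adjustment over all of them. At an adjusted p under 0.05 it called 746 genes, which is 4.57% of those tested. WT-USP21 was the higher side for 409 of them (2.51% of genes tested) and the lower side for 337 (2.06%). Genes called lower include Usp21. All 746 differed in the same direction in each of the 3 lines. The 3 WT-USP21 values lay wholly outside the range of the 3 ED-USP21 values for 374 of the 409 and for 282 of the 337, against 18.5% of all genes tested. Passing the test with 3 lines favours both traits, so they are no separate support for a called gene, here or below. Rises were larger than falls, with a median log2 difference of 0.91 among the genes called higher and -0.59 among those called lower. Differences of at least 2-fold numbered 179 upward and 74 downward, and of at least 4-fold 63 upward and 10 downward. Genes called higher were less abundant, at a median of 13.3 CPM against 34.3 CPM for those called lower. In what follows "rose" and "fell" describe WT-USP21 relative to ED-USP21, and every adjusted p is from this edgeR fit unless another is named.

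The number of calls depended strongly on single lines. Without line 2 it was 11 (10 higher and 1 lower), without line 4 it was 305 (190 and 115), and without line 3 it was 1701 (779 and 922). With the counts of lines 2 and 4 summed, so that these close lines stood as 1, there were 191 calls (116 higher and 75 lower). Without line 2, no list described below had more than 1 called gene in a direction. Among the called genes named below, the groups overlapped for Adamts15, Car9, Ccl20, Ctsc, Ehf, Fzd6, Hmga2, Il1a, Kcnab1, Lamp2, Mgst1, Ndrg1, Nt5e, Pdgfb and Slc39a10, whose differences show within lines. Genes named below that passed the test in the summed fit and without line 2 as well include Kdr, Timp3, Chst11, Nebl, Stra6, Map6 and Dclk1.

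**Figure D1:**
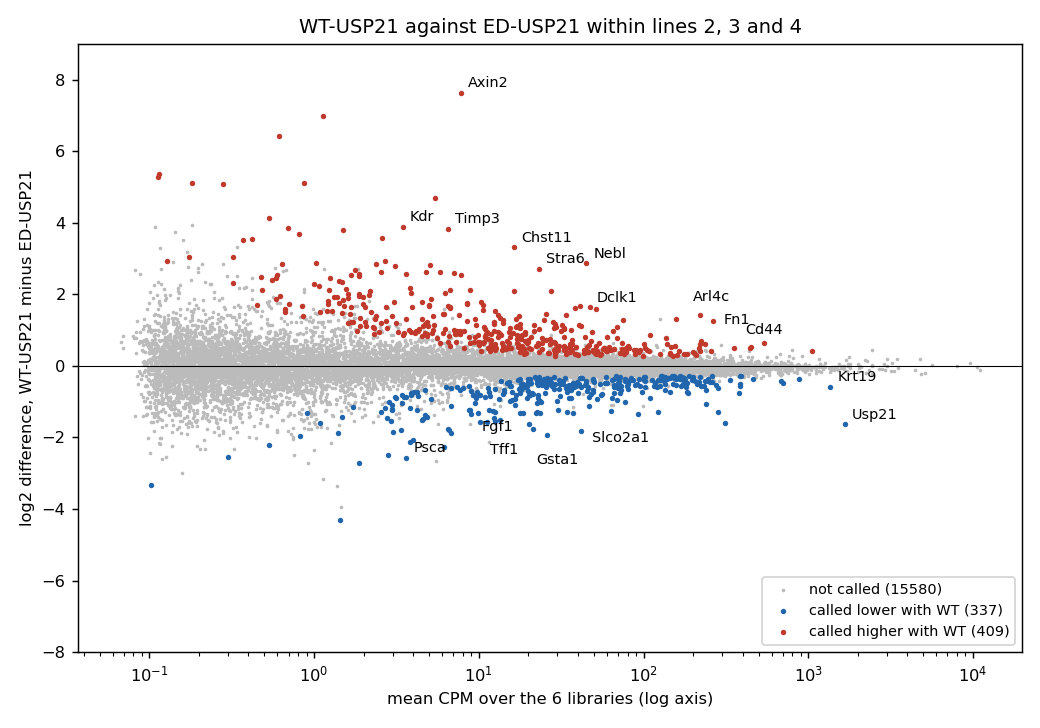
Log2 difference of WT-USP21 minus ED-USP21 (vertical axis) against the mean level in CPM over the 6 libraries of lines 2 to 4 (horizontal axis, log scale) for all 16326 genes tested. Each point is 1 gene, and red and blue mark the 409 genes called higher and the 337 called lower. Upward differences reach further from 0 than downward ones.

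Large rises outside the Wnt target list were measured for Kdr and Timp3. Kdr, the main receptor for vascular endothelial growth factor (VEGF), stood at 5.16, 7.16 and 7.09 CPM with WT-USP21 and 0.381, 0.540 and 0.376 CPM with ED-USP21. Its 14.9-fold rise (log2 3.90, SE 0.19, adjusted p = 0.00112) was of similar size in the 3 lines, at log2 3.68, 3.67 and 4.15. Timp3, a matrix-bound inhibitor of metalloproteinases, had 8.49, 9.996 and 17.9 CPM against 1.12, 0.486 and 0.934 CPM, a 14.2-fold rise (log2 3.83, SE 0.30, adjusted p = 0.00638). Both genes were nearly silent with ED-USP21 and clearly expressed with WT-USP21 in each line.

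Among the genes that rose, Chst11 and Nebl had the smallest p. Chst11, a sulfotransferase of chondroitin chains, stood at 33.9, 23.4 and 32.3 CPM with WT-USP21 and 2.71, 2.89 and 3.31 CPM with ED-USP21. It rose 9.92-fold (log2 3.31, SE 0.13, adjusted p = 7.78e-04), with all libraries of a construct close together. Nebl, which encodes the actin-binding protein nebulette, went from 8.63, 13.03 and 11.1 CPM with ED-USP21 to 69.8, 76.3 and 91.1 CPM with WT-USP21. That was a 7.29-fold rise (log2 2.87, SE 0.11, adjusted p = 7.78e-04), and again no libraries overlapped. Map6, a microtubule-stabilising protein, rose 2.67-fold from 18.5 ± 2.63 to 49.5 ± 7.73 CPM (SD, n = 3).

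Receptors and ligands of several growth factor pathways were among the genes that rose. In the VEGF list 4 of 10 tested genes rose and 0 fell, with a median log2 difference of 0.46 against 0.0039 over all genes tested. Beside Kdr these were the co-receptors Nrp1 (1.87-fold) and Nrp2 (1.47-fold) and the receptor Flt1 (1.42-fold). Summed markers of endothelial cells, the usual site of Kdr, were also higher with WT-USP21, at 18.2 to 18.7 CPM against 7.94 to 9.51 CPM. Most of that sum was Kdr and Flt1 themselves. Of 5 endothelial markers tested 3 rose, these and Esam, a junction protein of endothelium, at 1.22, 0.680 and 0.878 CPM against 0.245, 0.205 and 0.298 CPM (log2 1.86, SE 0.33, adjusted p = 0.0347). The endothelial genes Emcn, Erg and Robo4 had 0 reads in all 6 libraries, and 11 of the 13 endothelial markers had a mean under 1 CPM.

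Of 16 tested genes of fibroblast and platelet-derived growth factor signalling, 3 rose and 1 fell (median log2 0.32). Fgf18, a secreted ligand, had 4.13, 3.82 and 5.27 CPM with WT-USP21 and 0.653, 0.864 and 0.623 CPM with ED-USP21, a 6.14-fold rise (adjusted p = 0.00836). Fgf1, another ligand of the family, moved the other way, from 31.5, 25.6 and 33.8 CPM with ED-USP21 down to 10.3, 12.4 and 7.16 CPM with WT-USP21, 3.08-fold lower (adjusted p = 0.0153). Thus 1 ligand of the family was high with WT-USP21 in every line and another was low. The platelet-derived growth factor ligands Pdgfa and Pdgfb rose by smaller amounts, log2 0.92 and 0.38.

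In the insulin and insulin-like growth factor list 4 of 8 tested genes rose and 0 fell (median log2 0.39). Igfbp4, a secreted binding protein of these ligands, stood at 207, 228 and 234 CPM against 92.8, 108 and 73.4 CPM, 2.47-fold higher with WT-USP21 (adjusted p = 0.00840). Igfbp7 showed nearly the same ratio, 2.44-fold (adjusted p = 0.00367), with the WT-USP21 libraries at 83.4, 129 and 106 CPM. Igfbp3 rose by log2 0.96 and Irs1, the adaptor of the insulin receptor, by log2 0.70. The binding proteins were thus higher in every WT-USP21 library than in any ED-USP21 library.

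Among 38 tested genes of transforming growth factor-beta and bone morphogenetic protein signalling, 5 rose and 1 fell (median log2 0.18). The ligand Tgfb3 rose 3.46-fold, from 4.06, 5.27 and 4.36 CPM to 13.8, 13.5 and 20.8 CPM (adjusted p = 0.00890). Itgb6, the beta chain of an epithelial integrin that activates latent transforming growth factor-beta, rose from 21.9, 30.3 and 25.9 CPM to 47.6, 69.9 and 53.7 CPM (log2 1.13, SE 0.06, adjusted p = 0.00178). Bmp4, a ligand that also stands in the Wnt target list, rose by log2 0.94, while the related ligand Bmp2 fell by 0.62 on the log2 scale. All 4 moved the same way in the 3 lines.

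Retinoid handling was represented by 2 called genes out of 14 tested, and the median of the list was close to that of all genes (log2 0.01). Stra6, the membrane receptor that takes up retinol, had 40.01, 39.2 and 40.7 CPM with WT-USP21 and 7.93, 5.08 and 5.57 CPM with ED-USP21. The WT-USP21 libraries lay within a very narrow range, and the rise was 6.56-fold (log2 2.71, SE 0.13, adjusted p = 0.00112). Rdh10, which oxidises retinol on the way to retinoic acid, was already abundant and rose 1.43-fold, from 371 ± 25.7 to 529.9 ± 25.7 CPM (SD, n = 3, adjusted p = 0.0209).

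Planar cell polarity, the non-canonical branch of Wnt signalling that orients cells, had 3 rising and 0 falling genes of 23 tested (median log2 0.22). Prickle1, a cytoplasmic component of this system, went from 4.06, 4.12 and 3.41 CPM to 13.1, 12.4 and 13.9 CPM, 3.40-fold higher (log2 1.77, SE 0.12, adjusted p = 0.00383). The receptors Ptk7 and Fzd6 rose by log2 0.68 and 0.33. Wnt5a, the best known ligand of the branch, did not pass the test (log2 1.35, adjusted p = 0.0640).

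Several of the genes with the largest rises are better known from nerve and muscle. In the list of voltage-gated ion channels 5 of 46 tested genes rose and 2 fell (median log2 0.14), in that of neurotransmitter receptors 3 of 28 rose and 0 fell (0.17), and in that of synaptic and vesicle genes 6 of 27 rose and 0 fell (0.35). Chrna1, the alpha chain of the muscle acetylcholine receptor, was at 2.59, 1.72 and 4.12 CPM with WT-USP21 and 0.231, 0.194 and 0.143 CPM with ED-USP21. Gabrp, a subunit of the receptor for gamma-aminobutyric acid that is found in epithelia, was at 7.54, 3.71 and 3.10 CPM against 0.272, 0.529 and 0.324 CPM. Their fitted rises were 13.8-fold (adjusted p = 0.00892) and 11.9-fold (adjusted p = 0.0110), and the Gabrp level of line 2 was the highest of the 3 WT-USP21 values.

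Dclk1, a kinase bound to microtubules that marks tuft cells and some pancreatic progenitors, stood at 55.1, 89.5 and 69.3 CPM with WT-USP21 and at 20.7, 29.6 and 18.4 CPM with ED-USP21. It rose 3.12-fold (log2 1.64, SE 0.10, adjusted p = 0.00271), and line 3 was highest within each construct. The tuft-cell genes Gfi1b, Gnat3 and Il25 had 0 reads in all 6 libraries, and the summed tuft markers (343 to 389 CPM with WT-USP21 and 362 to 382 CPM with ED-USP21) were mostly Avil. Of 9 tuft markers tested 2 rose, Dclk1 and the phospholipase Plcg2 (log2 1.18, adjusted p = 0.0177), and 2 fell, the actin-binding proteins Vil1 (log2 -1.33, adjusted p = 0.0157) and Avil (log2 -0.28, adjusted p = 0.0466). The potassium channel subunit Kcnq1 rose 3.20-fold, and Kcnab1, an accessory subunit of potassium channels, fell by 0.71 on the log2 scale. Kalrn and Shank3, a guanine nucleotide exchange factor and a scaffold of synapses, rose by log2 0.97 and 1.04.

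Guidance cues of axons and vessels moved in both directions. Of 34 tested semaphorins, plexins and related genes 5 rose and 5 fell, and their median log2 difference was 0.13. Sema4f rose 4.13-fold and the receptor Plxnb1 3.13-fold, whereas the secreted ligand Sema3e fell from 218 ± 11.5 to 145 ± 10.4 CPM (SD, n = 3, adjusted p = 0.00880). All 3 moved the same way in the 3 lines.

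**Figure D2:**
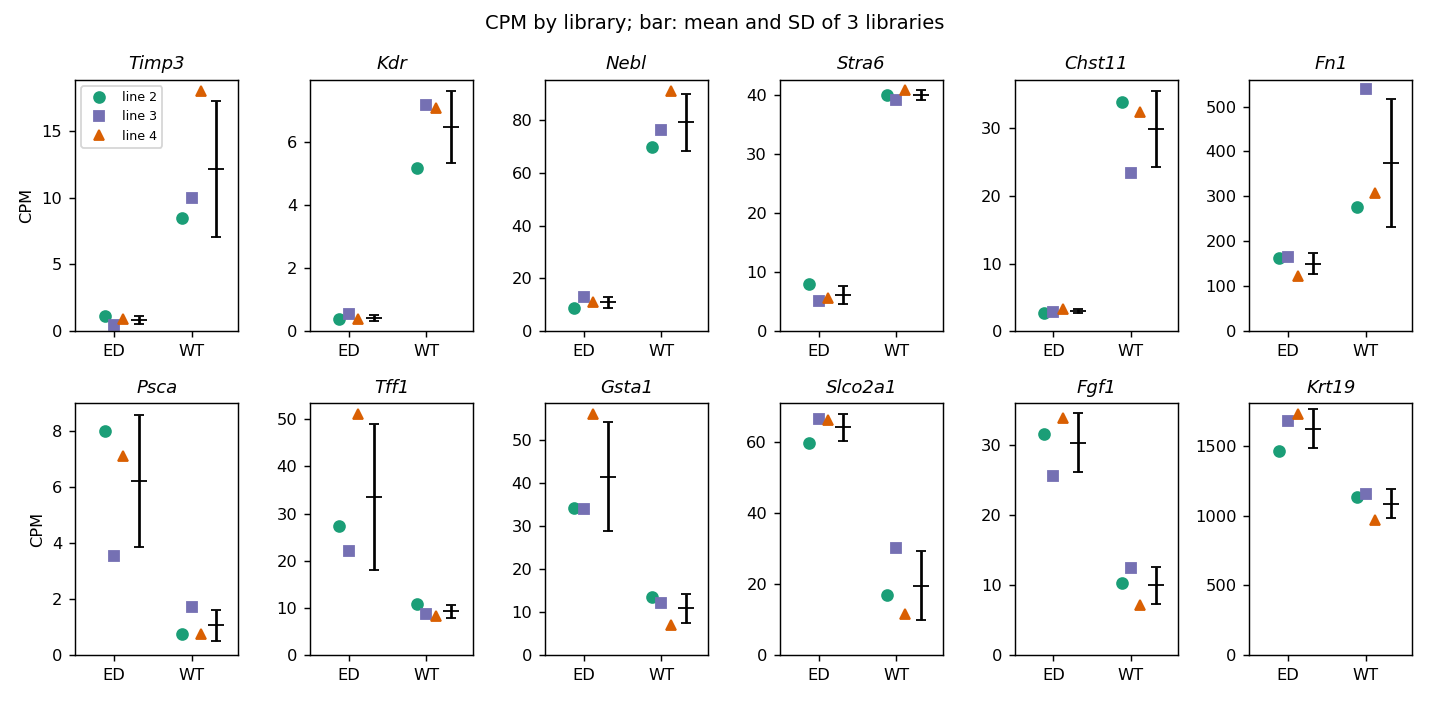
Level in CPM (vertical axis, from 0) of 12 genes in the 6 libraries, by construct (horizontal axis), with 1 point per library, colour and shape for the line, and a black bar for the mean and SD of the 3 libraries. The 6 genes of the upper row are higher in every WT-USP21 library than in any ED-USP21 library, and the 6 of the lower row are lower in every WT-USP21 library.

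Matrix genes were also among those that rose. Collagens had 6 rising and 0 falling genes among 28 tested, with a median log2 difference of 0.36. Col6a1, a chain of the microfibrillar type of collagen around cells, rose from 9.19, 11.3 and 8.51 CPM to 22.1, 28.6 and 25.98 CPM (log2 1.41, SE 0.09, adjusted p = 0.00271). Its partner chain Col6a2 rose 5.73-fold (adjusted p = 0.00995), the fibril-forming chain Col5a1 rose 2.11-fold, and the fibril-associated chain Col16a1 rose 2.36-fold. Levels of both Col6 chains separated the groups completely. Enzymes that build or modify glycosaminoglycans had 7 rising and 0 falling genes of 43 tested (median log2 0.14). Beside Chst11 these included Has2, which makes hyaluronan, at 11.97 ± 0.924 CPM (SD, n = 3) with WT-USP21 against 2.25, 3.57 and 0.804 CPM with ED-USP21. Its rise of 6.01-fold (SE 0.41 on the log2 scale, adjusted p = 0.0261) differed between lines, at log2 2.37, 1.64 and 3.98. The heparan sulfate enzymes Hs6st2, Ndst3 and Sulf2 rose by log2 1.22, 1.46 and 0.54.

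Metalloproteinases and their inhibitors gave 3 rises and 2 falls of 26 tested (median log2 0.10). Timp3 was the largest rise. Mmp15, a membrane-bound metalloproteinase, fell 2.83-fold (adjusted p = 0.0197), and Adamts15 fell 3.66-fold although its groups overlapped, with 0.852, 0.297 and 0.539 CPM with WT-USP21 and 2.72, 0.723 and 3.28 CPM with ED-USP21. Integrins had 1 rise (Itgb6) and 4 falls of 19 tested, with a median log2 of -0.0043. Itga7, a laminin receptor chain, fell from 106, 94.5 and 111 CPM to 53.7, 55.6 and 44.8 CPM (log2 -1.02, SE 0.10, adjusted p = 0.00920). Itga1, a collagen receptor chain, and Itgb3, a chain of the vitronectin receptor, fell by 1.12 and 0.86 on the log2 scale.

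Mesenchymal genes and the transcription factors of epithelial-mesenchymal transition had 5 rising and 0 falling genes of 23 tested, with a median log2 difference of 0.45. Fn1, fibronectin, was at 276, 539 and 308 CPM with WT-USP21 and at 163, 165 and 123.3 CPM with ED-USP21. Line 3 had the highest level and the largest difference, and the fitted rise was 2.40-fold (log2 1.27, SE 0.17, adjusted p = 0.0161). Cdh2, N-cadherin, rose from 69.5, 89.7 and 73.96 CPM to 125, 141 and 155 CPM (log2 0.86, SE 0.09, adjusted p = 0.00892). Zeb2, a repressor of epithelial genes, rose 2.27-fold, with 24.6, 24.3 and 24.4 CPM in the WT-USP21 libraries and 10.8, 13.7 and 8.34 CPM in the ED-USP21 libraries. Twist1, another factor of this kind, rose by log2 0.61. The remaining called gene, Fstl1, had very few reads, at a mean of 0.221 CPM with WT-USP21 and 0.0036 CPM with ED-USP21. Fstl1 was named after its values were seen.

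Markers of fibroblasts, cells that also express these genes, were low throughout. Their sum was 8.70 to 21.3 CPM with WT-USP21 and 6.78 to 9.64 CPM with ED-USP21, 10 of 14 had a mean under 1 CPM, and Dcn, Lum, Pdpn and Thy1 had 0 reads in all 6 libraries. The WT-USP21 library of line 4 stood apart with the highest sum, and that of line 2, the lowest of its group, lay below the ED-USP21 library of line 3. The fibrillar collagen chain Col1a1 was at 1.89, 2.29 and 4.84 CPM with WT-USP21 and 0.572, 1.67 and 1.36 CPM with ED-USP21, Col1a2 at 0, 0.669 and 5.38 against 0, 0.885 and 0 CPM and Col3a1 at 0, 0.436 and 3.20 against 0.0544, 0.173 and 0.0130 CPM, and none of these passed the test. Col1a2 was chosen after its values were seen. The median log2 difference in lines 2, 3 and 4 was 0.04, 0.45 and 0.80 for collagens and 0.27, 0.20 and 0.50 for mesenchymal genes. Without line 4, 6 collagens and 3 mesenchymal genes were called higher, against 6 and 5 with it. The part of the fibroblast markers in these differences was not tested. In a bulk library a change in the share of cells of 1 kind and a change in RNA per cell cannot be told apart.

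YAP and TEAD targets, a list of genes that respond to the Hippo pathway, had 6 rising and 1 falling gene of 24 tested, with a median log2 of 0.09. Ankrd1 rose 1.43-fold to 520.3 ± 81.2 CPM (SD, n = 3, adjusted p = 0.0262) and Crim1 by log2 0.43, while Nt5e, the ectonucleotidase CD73, fell by 0.43 on the log2 scale. Among the most abundant genes that rose were Tns4, a tensin of focal adhesions (1.35-fold, to 1199 ± 107 CPM), and Msn, which links the membrane to actin (1.56-fold, to 655 ± 67.5 CPM). Further genes with large rises were Sirpa (7.59-fold), Slc7a2 (7.29-fold), Ism1 (7.18-fold), Slco5a1 (6.97-fold) and Wisp1 (6.41-fold). They encode a receptor for CD47, a carrier of cationic amino acids, a secreted protein, a member of the organic anion transporter family and a matricellular protein, in that order.

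**Figure D3:**
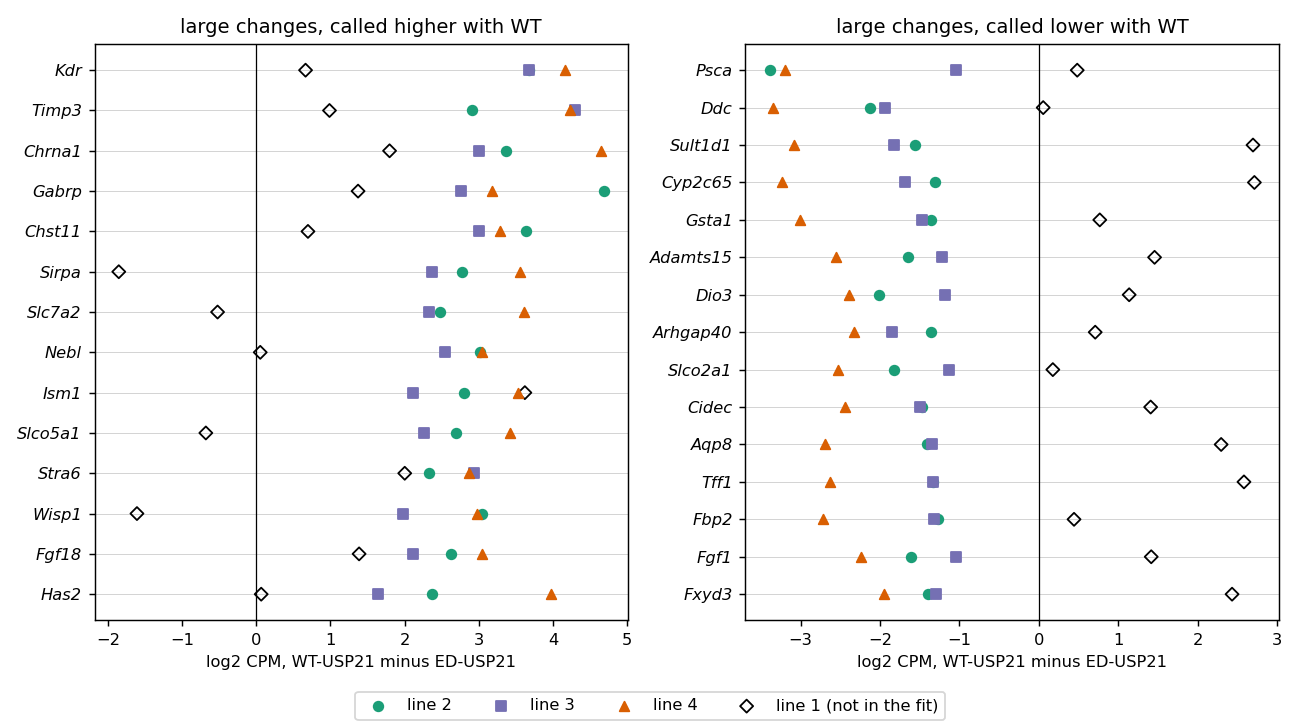
Log2 difference of WT-USP21 minus ED-USP21 in each of lines 2, 3 and 4 and, for comparison, in line 1, for 14 genes with large rises (left) and the 15 with the largest falls (right). Each point is 1 line, and the points of lines 2 to 4 lie on 1 side of 0 for every gene shown, while line 1 often lies elsewhere.

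Epithelial genes had more falls than rises. Of 35 tested genes of epithelial junctions and identity 7 fell and 1 rose, with a median log2 difference of -0.39. Tjp3, a scaffold of tight junctions, stood at 25.2, 14.3 and 14.5 CPM with WT-USP21 and 54.8, 25.8 and 47.5 CPM with ED-USP21, 2.34-fold lower (log2 -1.23, SE 0.16, adjusted p = 0.0150). Its lowest ED-USP21 value (line 3) was only just above its highest WT-USP21 value (line 2). Ehf, an epithelial transcription factor, fell 2.03-fold within lines (adjusted p = 0.0163) although its groups overlapped, with 28.7, 12.6 and 7.79 CPM against 51.1, 21.9 and 21.4 CPM. Pkp1, a plakophilin of desmosomes, was the member that rose, by log2 1.32.

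Some abundant duct genes fell by modest amounts. Of 12 tested duct and PDAC markers 2 fell, Krt19 and Muc1, and 0 rose, 16.7% against 4.57% over all genes (median log2 -0.06). Krt18 and Spp1, also abundant, were not called. Krt18 had 2785, 3140 and 2869 CPM with WT-USP21 and 2415, 3538 and 2640 CPM with ED-USP21. Spp1 had 2494, 3317 and 2438 CPM with WT-USP21 and 1662, 3112 and 1553 CPM with ED-USP21. Both were chosen after their values were seen. Krt19, the duct keratin, went from 1466, 1683 and 1728 CPM with ED-USP21 to 1135, 1156 and 969 CPM with WT-USP21 (log2 -0.58, SE 0.09, adjusted p = 0.0261). It was the single called gene of 19 tested keratins (median log2 -0.19), a share of 5.26%, near the 4.57% over all genes. Muc1, a membrane mucin, fell from 213, 194 and 201 CPM to 147, 147 and 117 CPM (log2 -0.57, SE 0.08, adjusted p = 0.0194). Anxa4, an annexin, fell 1.39-fold and Emp1, an epithelial membrane protein, 1.29-fold. Krt19, Muc1, Anxa4 and Emp1 each had every WT-USP21 library below every ED-USP21 library. Cdh1, E-cadherin, did not pass the test (log2 -0.49, adjusted p = 0.0661). Cdh17, the cadherin of intestinal and duct epithelia, fell from 250.02, 224 and 209.7 CPM to 167, 134 and 116 CPM (log2 -0.73, SE 0.07, adjusted p = 0.00880).

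Gastric-type secretory genes and the classical PDAC genes, which mark the better differentiated subtype, had 6 falls and 2 rises of 24 tested (median log2 -0.29). Tff1, a trefoil peptide of gastric mucus, stood at 10.9, 8.70 and 8.21 CPM with WT-USP21 and 27.4, 22.1 and 51.2 CPM with ED-USP21, 3.40-fold lower (adjusted p = 0.0211). The ED-USP21 level of line 4 was well above that of the others. Ceacam1, an adhesion molecule, fell 2.45-fold (adjusted p = 0.00892). Bcl2l15 was among the members that rose (log2 0.80, adjusted p = 0.0454). Hnf4a, a nuclear receptor that governs gut-like epithelial genes, fell as well, from 208, 216 and 220.3 CPM to 154, 166 and 141 CPM (adjusted p = 0.0198). Endodermal transcription factors had 3 falls and 0 rises among 22 tested (median log2 -0.07), Hnf4a and Klf4 (log2 -0.56) among them.

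The basal-like PDAC subtype is the less differentiated counterpart of the classical one. Of 11 tested genes that mark it, 3 fell and 0 rose (median log2 -0.48). Among them were Sprr1a, a cornified-envelope protein (0.88 lower on the log2 scale), and Dhrs9, a retinol dehydrogenase (0.66 lower). Ivl, involucrin, another protein of stratified epithelia, had the smallest p after Usp21 among the genes that fell (predicted genes aside), at 9.69, 13.2 and 8.84 CPM against 22.97, 24.7 and 19.5 CPM (log2 -1.10, SE 0.09, adjusted p = 0.00638).

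The largest falls among genes with a mean of at least 1 CPM were spread over several functions. Psca, a cell-surface antigen of gastric and urogenital epithelia, had 0.741, 1.70 and 0.750 CPM with WT-USP21 and 8.002, 3.52 and 7.08 CPM with ED-USP21 (5.91-fold lower, adjusted p = 0.0423). Line 3 showed the smallest difference for Psca. Ddc, which decarboxylates L-DOPA, had 1.15, 0.850 and 0.562 CPM against 5.13, 3.34 and 5.94 CPM (5.59-fold lower, adjusted p = 0.0144). The sulfotransferase Sult1d1 fell 4.41-fold, the thyroid-hormone deiodinase Dio3 3.63-fold, the prostaglandin transporter Slco2a1 3.53-fold, the lipid-droplet protein Cidec 3.49-fold and the water channel Aqp8 3.49-fold. Slco2a1 was the most abundant of these, at 16.8, 30.2 and 11.4 CPM against 59.6, 66.4 and 66.3 CPM. Log2 differences of -1.86, -1.76 and -1.59 were measured for Arhgap40, a GTPase-activating protein, Fbp2, a fructose bisphosphatase, and Fxyd3, a regulator of the sodium pump, and all 3 passed the test.

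Detoxifying enzymes had falls and no rises. Among 29 tested NRF2 targets and glutathione genes 7 fell and 0 rose, and the median log2 difference was -0.26. Gsta4, a glutathione S-transferase, was at 173, 190.1 and 128 CPM with WT-USP21 and 365, 372 and 462 CPM with ED-USP21 (log2 -1.30, SE 0.17, adjusted p = 0.0159). Gsta1, of the same family, was at 13.4, 12.2 and 6.94 CPM against 34.2, 33.9 and 56.04 CPM, 3.80-fold lower (adjusted p = 0.0281). Line 4 had the widest gap for both. Gclc, the enzyme that limits glutathione synthesis, fell from 181, 181 and 176 CPM to 106, 129.8 and 93.05 CPM (log2 -0.72, SE 0.09, adjusted p = 0.0144), and Nqo1 and Mgst1 fell by 0.66 and 0.55 on the log2 scale. Cyp2c65, a cytochrome P450 of the stomach and gut, fell 4.17-fold, from 4.49, 6.05 and 8.93 CPM to 1.80, 1.87 and 0.925 CPM (adjusted p = 0.0371). Gsta and Cyp2c genes have close relatives, and nothing in the sources says how reads shared between them were counted, so their single values are uncertain.

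Amino acid supply and stress genes had 5 falls and 0 rises of 29 tested (median log2 -0.18), all of small size. Cth, which makes cysteine, fell by 0.48 on the log2 scale, Sesn2 by 0.33, Slc1a5, a glutamine carrier, by 0.29 and Trib3 by 0.43. Hypoxia and glycolysis genes had 3 falls and 0 rises of 34 tested (median log2 -0.14), among them Ndrg1 (log2 -0.56) and the carbonic anhydrase Car9 (log2 -0.71). Their called share was 8.82%, against 4.57% over all genes. Erbb3, a receptor of the epidermal growth factor receptor family, was the only called gene of 12 tested in that family and its ligands (8.33%, against 4.57% over all genes). It stood at 11.5, 17.3 and 11.04 CPM with WT-USP21 and 28.6, 33.3 and 33.9 CPM with ED-USP21, 2.44-fold lower (log2 -1.29, SE 0.13, adjusted p = 0.00892).

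Lipid genes moved in both directions, with 4 rises and 5 falls of 27 tested (median log2 -0.15). Abca1, which exports cholesterol, rose 4.14-fold, from 1.84, 1.21 and 1.45 CPM to 7.99, 4.76 and 6.01 CPM (log2 2.05, SE 0.14, adjusted p = 0.00383). Pparg, a nuclear receptor of fat storage, fell by 0.54 on the log2 scale, as did Cpt1a, which brings fatty acids into mitochondria, by 0.59. Solute carriers were also mixed, with 6 rises and 10 falls of 229 tested, a called share of 6.99% against 4.57% over all genes. The zinc transporter Slc39a10 rose by log2 0.56 and Slc27a6, a fatty acid transporter, fell by 0.45.

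Several housekeeping groups had no gene that passed the test. These were 31 cell cycle genes, 62 replication-dependent histones, 80 ribosomal proteins and 104 genes of oxidative phosphorylation, with medians of -0.0041, 0.10, -0.02 and 0.02 on the log2 scale. The 34 tested genes of interferon response and antigen presentation (median log2 0.05) and the 19 of Notch signalling (0.11) also had 0 calls. With 4.57% of all genes called, 0 calls does not set apart the lists of 19, 31 and 34 genes. Whether it sets apart the longer lists was not tested. In Notch signalling Dll4 (log2 0.95, adjusted p = 0.0507) and Lfng (log2 0.66, adjusted p = 0.0586) came close without passing. Summed leukocyte markers were lower with WT-USP21, at 52.9 to 76.9 CPM against 83.6 to 116 CPM, and most of the sum was the single gene Cd14. Emr1 and Tyrobp had 0 reads in all 6 libraries. The part of the other-cell markers in the results was not tested. Altogether, 119 of the 409 genes called higher and 86 of the 337 called lower belonged to any of the 68 lists used.

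**Figure D4:**
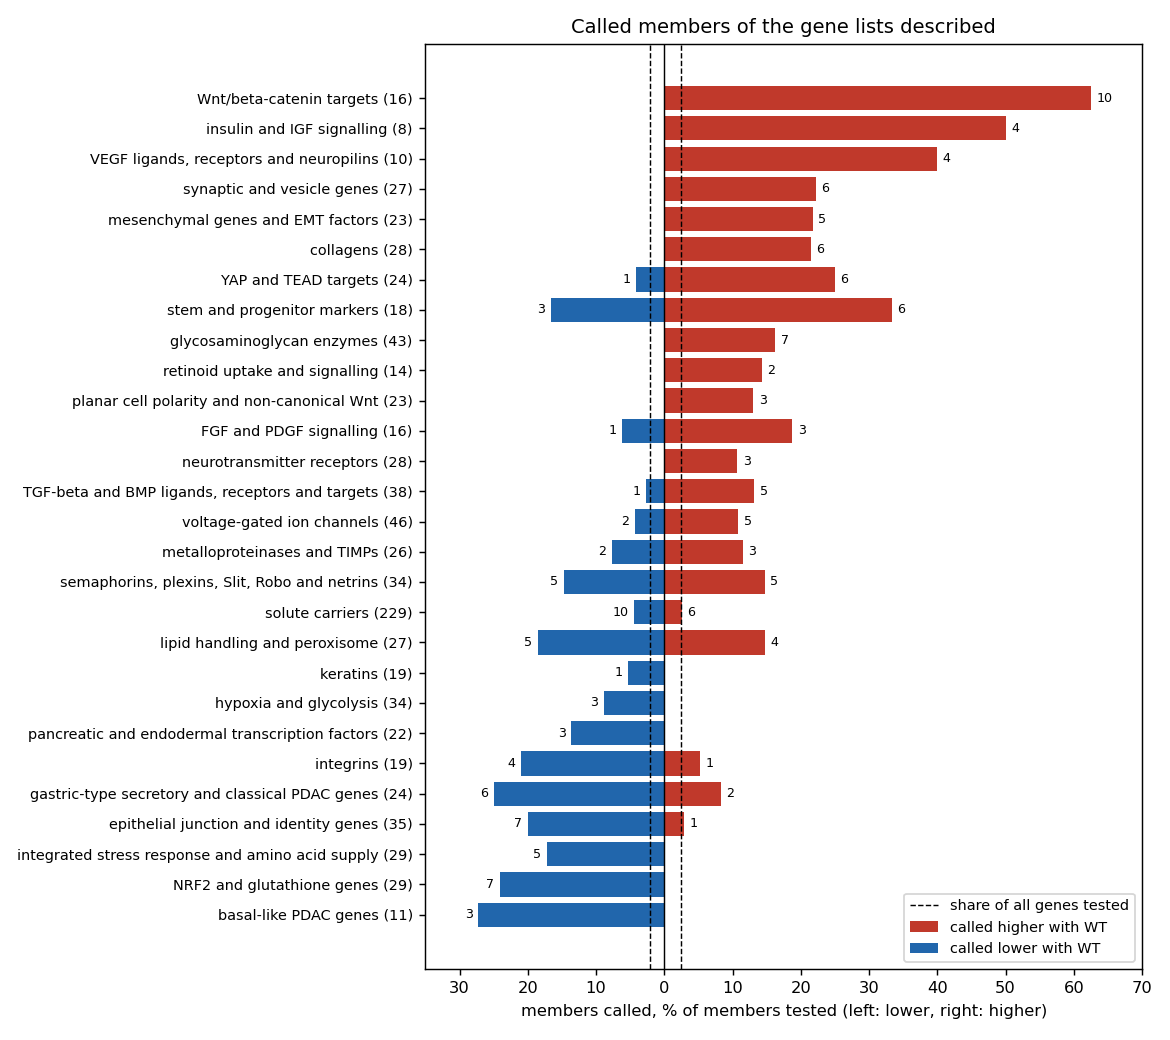
Share of the tested members of each described list that was called, in percent, with members called higher to the right and members called lower to the left. Numbers at the bars are called members, numbers in brackets are members tested, and the dashed lines mark the shares over all genes tested (2.51% higher and 2.06% lower).

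Promoter sequences were searched because genes of 1 group moved together. RefSeq promoters (250 bases before to 50 after the start, build GRCm38.p6) were at hand for 291 of the genes called higher, 244 of those called lower and 10407 of all tested. Each motif was sought on both strands. The TCF/LEF motif CTTTGAT was in 3.69% of 406 promoters of genes called higher, 1.54% of 325 promoters of genes called lower and 2.49% of all 13309 promoters. The HNF4 motif CAAAGTCCA was in 0.246%, 0.923% and 0.391%, which rests on 1 and 3 promoters in the called sets. The TEAD motif ACATTCC (2.71%, 2.46% and 2.89%), the AP-1 motif TGANTCA (5.91%, 8.62% and 5.64%) and the antioxidant response motif TGACNNNGC (13.8%, 16% and 14.4%) were near their overall shares or moderately above them. These shares are descriptions and were not tested.

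The sequences below show where the TCF/LEF motif lies in promoters of 3 genes that rose, and where the HNF4 motif lies in 1 that fell. Capitals mark the motif or its reverse complement. Each runs 5′ to 3′ on the strand of the gene. The Gabrp stretch (chr11:33579038-33579124, minus strand) holds the motif at 2 places, and the Stra6 stretch (chr9:58129164-58129250, plus strand), the Dclk1 stretch (chr3:55242171-55242257, plus strand) and the Cyp2c65 stretch (chr19:39060850-39060938, plus strand) at 1 each.
Gabrp: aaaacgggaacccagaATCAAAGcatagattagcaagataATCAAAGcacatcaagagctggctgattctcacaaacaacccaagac
Stra6: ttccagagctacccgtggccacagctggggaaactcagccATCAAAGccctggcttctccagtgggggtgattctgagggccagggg
Dclk1: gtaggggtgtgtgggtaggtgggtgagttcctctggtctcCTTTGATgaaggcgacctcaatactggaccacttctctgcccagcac
Cyp2c65: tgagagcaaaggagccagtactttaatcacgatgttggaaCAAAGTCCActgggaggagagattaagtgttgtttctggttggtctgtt
A match says only that these letters stand in the window. These genes were chosen for display after their values were seen.

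The 3 lines did not contribute equally. The median log2 difference of the genes called higher was 0.85, 0.76 and 1.12 in the order of lines 2 to 4, and that of the genes called lower was -0.53, -0.48 and -0.75. Line 4 had the largest difference for 309 of the 409 genes called higher and 258 of the 337 called lower, and line 3 the smallest for 248 and 200. Across the 12270 genes with a mean of at least 1 CPM, the differences of lines 2 and 4 correlated at r = 0.698, those of lines 3 and 4 at 0.499 and those of lines 2 and 3 at 0.415. These values are across genes, which are not independent replicates.

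An interaction term in edgeR set the construct effect of line 3 against that of lines 2 and 4. Line 3 has 1 library per construct, and the fit leaves 1 residual degree of freedom, the difference between lines 2 and 4, which are close to each other. Its p-values therefore measure line 3 against the spread of these lines only and do not show a difference particular to line 3. It called 148 genes (0.907% of those tested), 134 of them with a more positive difference in line 3. Only 3 of the 148 were among the 746 genes. Psca was one of these, with an interaction of 2.29 on the log2 scale (adjusted p = 0.0407). Polr2a, the large subunit of RNA polymerase II, led the annotated genes with differences of -0.81, 1.10 and -0.86 on the log2 scale (interaction 1.93, adjusted p = 0.00870), and Kmt2d, a histone methyltransferase, showed -0.61, 0.96 and -0.76 (interaction 1.64, adjusted p = 0.0123). Both genes were chosen after their values were seen. They were higher with WT-USP21 in line 3 and lower in lines 2 and 4.

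Transcript length moved with this pattern. The median longest transcript was 7244 bases for the interaction genes and 2927 bases for all genes tested. The 2023 genes with the longest transcripts (5409 bases and more) were taken among genes with a mean of at least 5 CPM. For them the WT-USP21 library of line 3 lay a median of 0.118 above the mean of all 6 libraries (log2 scale). The construct difference of line 3 had a median of 0.091 among them and -0.065 among the 2023 genes with the shortest transcripts (up to 2008 bases). Genes called higher had a median length of 4300.5 bases and those called lower of 3150 bases. Among genes with a mean of at least 5 CPM, in 5 groups of rising length, 29, 39, 51, 69 and 102 were called higher. In the same order 60, 69, 58, 53 and 52 were called lower. The median fitted difference of the 2023 longest over the 3 lines was -0.0023. The part of length in the calls was not tested.

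Line 1, which the fit did not use, gives the same measure in 1 further pair of libraries. It was left out because its construct effect differs from that of lines 2 to 4. Its values are therefore a description and no independent check of the calls. With 1 library per construct it allows no test. Of the 409 genes called higher in lines 2 to 4, 210 were also higher with WT-USP21 in line 1, which is 51.3%, and 51.5% of all genes tested were higher there. Of the 337 genes called lower, 53 were also lower in line 1, 15.7%, while 48.0% of all genes tested were lower there. Their median log2 difference in line 1 was 0.40, and 62 of them were at least 2-fold higher with WT-USP21 in line 1, against 3 at least 2-fold lower. Usp21 itself had 11.3-fold more reads with ED-USP21 in line 1.

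Single genes showed both patterns. Stra6 (12.8 CPM with WT-USP21 and 3.19 CPM with ED-USP21 in line 1), Prickle1 (5.03 and 1.70 CPM) and Fgf18 (2.33 and 0.876 CPM) were higher with WT-USP21 in line 1 as well. Fn1 (737 and 723 CPM), Cdh2 (152 and 156 CPM) and Nebl (9.38 and 9.03 CPM) were nearly equal between the constructs there. Tff1 (21.4 and 3.55 CPM), Ehf (9.65 and 1.81 CPM) and Muc1 (168 and 53.3 CPM) were higher with WT-USP21 in line 1 and lower with it in lines 2 to 4. Of the 7 epithelial genes that fell in lines 2 to 4, 1 was also lower in line 1. Of the 7 NRF2 and glutathione genes that fell, 2 were, and of the 6 gastric and classical genes 0 were. Among the genes that rose, 1 of 5 mesenchymal genes, 2 of 6 collagens, 5 of 7 glycosaminoglycan enzymes and 3 of 4 insulin-pathway genes were also higher in line 1.

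**Figure D5:**
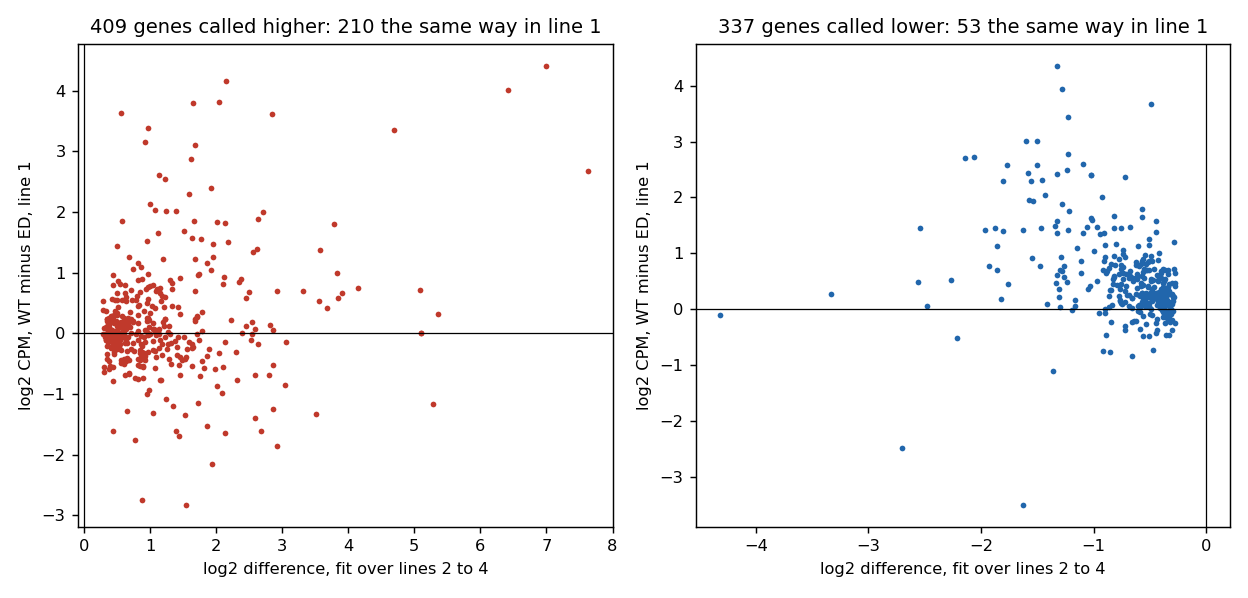
Log2 difference of WT-USP21 minus ED-USP21 in line 1 (vertical axis) against the fitted log2 difference over lines 2 to 4 (horizontal axis), with 1 point per called gene and separate panels for genes called higher (left) and lower (right). Genes called higher lie on both sides of 0 in line 1 (210 of 409 above it), whereas most genes called lower lie above 0 there (283 of 337).

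The threshold itself fell among genes of quite different size. Just inside it lay Eps8l2 (log2 -0.71), the predicted gene Gm13704 (2.13) and Esr1 (0.98), and just outside it Anks6 (0.46), Dlg4 (1.36) and Cyp2j6 (-0.36).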

How the data were processed

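Total RNA of 8 libraries was sequenced. The authors deposited raw read counts for 39179 genes, as whole numbers, with 3 rows that name no gene. Reads on no gene took 13.2% to 20.6% of the 6 libraries used and stayed out of library sizes and tests. The submitters' processing notes name CASAVA, STAR, TopHat, Cufflinks, HTSeq and the build mm9, without versions or roles. Strand setting and handling of shared reads are not given in the sources used here. Therefore overlapping and antisense genes are not separated. No mm9 coordinates are printed, and promoters come from RefSeq on GRCm38.p6, with chromosome 18 left out.

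From the counts, edgeR 4.0.16 in R 4.3.3 (TMM scaling, filterByExpr, quasi-likelihood test, line as block) gave log2 differences, standard errors and p-values adjusted over 16326 genes. CPM used TMM-scaled library sizes, and differences within a line used a prior count of 2. DESeq2 1.42.0 and limma 3.58.1 served as alternatives. The line numbers pair libraries because both libraries of a number are the same cell line, per the labels. Deviations from the group means correlated at 0.145, 0.163 and 0.0538 within lines 2, 3 and 4, and at -0.153 to 0.0424 across lines. Lines 2, 3 and 4 are the replicates, and the block takes out differences in level between them. The p-values therefore measure the construct difference against its variation over these 3 lines, of which lines 2 and 4 are close to each other. On simulated counts for this comparison (16326 genes) the fit recovered 35 of 50 genes raised 2-fold and 45 of 50 raised 4-fold. It recovered 29 of 50 lowered to 0.5 and 38 of 50 lowered to 0.25, with 6 false calls. The simulated libraries were drawn independently, with the same construct effect in every line. These counts therefore do not give the error rate of the fit on the real libraries.

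The lines, the gene lists and the alternatives were chosen with earlier results of these data known. Gene lists are described by counts and medians. Named genes are Usp21, the 15 largest changes in each direction that have 1 sign in 3 lines and average at least 1 CPM, the 5 smallest p and 5 most abundant in each direction, and up to 4 members per list with the smallest p. Where a list has calls in both directions, the rule takes at least 1 of each. Predicted genes and Wnt targets were passed over for the largest, smallest p and most abundant. A few items that this rule covers are not reported. Transcript lengths are the longest per gene in GENCODE vM21. A depth of 72828184 or more counts per library makes counting error small for most named genes. Variation of the construct difference between lines decides the precision.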

Additional observations from a re-analysis of the deposited data

Results flagged for a closer look

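Line 1 moved against lines 2 to 4 for many named genes. This difference was not tested, since line 1 has 1 library per construct. Line 1 was also left out of the fit because its construct effect differs, so the contrast follows in part from that choice. The genes called lower in lines 2 to 4 had a median log2 difference of 0.40 in line 1. The trefoil peptide Tff1 was 2.58 on the log2 scale in line 1 and -1.33, -1.34 and -2.64 in lines 2, 3 and 4. Of the 337 genes called lower, 283 were higher with WT-USP21 in line 1. Genes named by rule that were higher there by at least 1 on the log2 scale include Cyp2c65 (2.71), Sult1d1 (2.70), Ivl (2.61), Fxyd3 (2.43), Aqp8 (2.30), Rnase4 (1.76), Fam83e (1.49), Adamts15 (1.46), Fgf1 (1.42), Cidec (1.41) and Dio3 (1.14), with the log2 difference of line 1 in brackets. Among genes that rose, the matricellular gene Wisp1 had -1.61 in line 1, at 4.70 CPM with WT-USP21 and 14.4 CPM with ED-USP21. Sirpa, the receptor for CD47, had -1.85 there, but it was at 0 CPM with WT-USP21 and 0.0578 CPM with ED-USP21, so this value rests on almost no reads.

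Psca, the surface antigen of gastric epithelium, had a construct effect in line 3 that differed from that of lines 2 and 4 by 2.29 on the log2 scale (edgeR interaction, adjusted p = 0.0407). That p rests on 1 library per construct in line 3 and on the spread between lines 2 and 4 alone, so it does not establish a difference. Its differences were -3.39, -1.04 and -3.20 in lines 2, 3 and 4, all of 1 sign.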

How the results depend on the processing

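The count of 746 called genes was 1380 with no filter on low counts, 383 with no replicate block (376 of them among the 746), 191 with lines 2 and 4 summed, 4 with all 4 lines and 1501 by DESeq2 (747 higher and 754 lower, 742 of them among the 746). Leaving out 1 line at a time gave 11 to 1701, the low value without line 2 and the high one without line 3. RLE scaling gave 741, a robust spread 850, a mean of at least 5 CPM 591 and limma-trend 831. The 148 genes of the line 3 interaction became 91 with RLE scaling and 264 by DESeq2. The share of calls that were higher was 54.8%, and 63.7% with no replicate block, 45.8% without line 3 and 90.9% without line 2. The cause of these shifts was not tested.

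All 746 genes have 1 sign in the 3 lines, so leaving out or summing lines could not turn them. With all 4 lines 739 kept their direction, but 3 of these lines are the ones that gave the calls. Of 139 named genes 119 no longer passed without line 2, 60 with lines 2 and 4 summed, 43 with no replicate block, 40 without line 4 and 125 with all 4 lines. Stra6, Prickle1 and Dclk1 were among the genes that passed with all 4 lines. The Usp21 difference stayed between -1.57 and -1.67 when a line was left out.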

Other observations

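Some groups not described above also held called genes. Among 33 tested lysosome and autophagy genes 4 rose and 0 fell, with a median log2 difference of 0.09. Among them were the cholesterol transporter Npc1 (1.40-fold, adjusted p = 0.0207 in edgeR), the membrane protein Lamp2 (1.25-fold) and the protease Ctsc (1.27-fold). Among 37 tested chemokines and cytokines 2 fell and 0 rose (median log2 -0.07). That is a called share of 5.41%, near the 4.57% over all genes. Ccl20, a ligand that draws lymphocytes and dendritic cells to epithelia, was at 15.9, 6.43 and 8.50 CPM with WT-USP21 and 31.7, 10.9 and 19.8 CPM with ED-USP21 in lines 2, 3 and 4 (log2 -0.99, SE 0.10, adjusted p = 0.00892). Il1a, an inflammatory cytokine, fell by 0.82 on the log2 scale. The groups overlapped for Ccl20, since levels differed between lines, but each WT-USP21 library lay below the ED-USP21 library of its own line.

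Of 22 tested RAS-MAPK output genes 2 rose, Hmga2 (log2 0.70) and the phosphatase Dusp4 (log2 0.61). The called share was 9.09%, against 4.57% over all genes. Arl4c, a small GTPase of the ARF family, rose 2.67-fold, from 103, 161 and 102 CPM to 284, 329 and 342 CPM (log2 1.41, SE 0.13, adjusted p = 0.00847). Zinc finger proteins had 4 rises and 1 fall among 336 tested, 1.49% of them, against 4.57% over all genes.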
